A study of Mus musculus with 15 samples.

Results

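The genes described here encode the acid hydrolases of the lysosome, its proton pump and part of its membrane. They are 46 genes picked by their symbol from a list, out of 33321 rows in the count table, and all 46 had a row. The list holds 18 hydrolases (10 glycosidases, 3 sulfatases, 3 lipid hydrolases and 2 proteases) and 16 subunits of the vacuolar-type proton pump, or V-ATPase (6 of its V0 part, 8 of its V1 part and 2 accessory subunits). It also holds 7 membrane proteins, 3 genes for enzyme activators and the granulin precursor, and 2 transcription factors. The filter on low counts kept 45 of the 46 genes, and Atp6v0d2, which it removed, is described by its raw counts.

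Lysosomes break down material taken up from outside the cell or delivered by autophagy, and in brain white matter they digest the lipid-rich membranes of damaged myelin inside phagocytes. Their hydrolases work at acid pH, which the V-ATPase keeps up: its cytosolic V1 part splits ATP and its membrane V0 part carries protons into the lumen. Transcription factors of the MiT/TFE family, TFEB and TFE3 among them, bind an E-box motif in the promoters of many lysosomal genes, known as the CLEAR motif, and raise their transcription together.

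RNA had been sequenced from mouse corpus callosum, the main white matter tract between the hemispheres, in 15 libraries, 3 in each of 5 groups. LPC_Ipsil was tissue injured with lysophosphatidylcholine (LPC), a detergent-like lipid that strips myelin and is followed by repair, and LPC_Contra was the tissue on the opposite side. LNIO_Ipsil was tissue injured with L-NIO, which blocks nitric oxide synthase and so narrows small vessels, as a model of white matter stroke, and LNIO_Contra was the tissue opposite to it. Sham_Ipsil was tissue of mice with a sham operation, at the site where saline had been injected. Injured and opposite tissue was taken on day 4, and the labels name no separate day for sham tissue, nor the strain, sex or age of the mice. Whether replicates are different mice is likewise not given, so the p-values speak of the spread over these samples alone, and that spread may be technical. The tissue is a mixture of cells, so more cells of a type and more RNA per cell cannot be told apart.

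Library totals ran from 14896445 to 20916606 counts, and levels are given as CPM, that is counts scaled to the same library total, after scaling by trimmed means (TMM). In every library 7 markers of mature oligodendrocytes, Mbp among them, summed to between 15320 and 30130 CPM, and 7 markers of neurons to between 3191 and 5573 CPM. These sums describe the tissue, and no limit was set by which its label could fail. LPC_Ipsil replicate 3 stood apart from its group. On the first principal component (31.6% of the variance) the LPC_Ipsil libraries lay at -77.2, -50.6 and 11.3, the LNIO_Ipsil libraries between -34.2 and -12.7, and the Sham_Ipsil libraries between 22.7 and 28. LPC_Contra replicate 2 stood apart on the second component, at 62.9 against values between -30.4 and 20.7 in the other libraries. Results that rest on LPC_Ipsil replicate 3 are therefore given with and without it. That library was picked by its expression, which lay nearer to sham, so leaving it out favours larger differences. P-values and calls without it are descriptive only, in every comparison below.

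The CLEAR motif is built on the hexamer CACGTG, and the sequences below show where that hexamer lies in promoters of the list. RefSeq promoters of the GRCm38.p6 build, each 250 bases before to 50 bases after an annotated start, were found for 39 of the 46 genes. Promoters of Atp6v0d2, Atp6v1b2, Atp6v1c1, Atp6v1g1, Atp6v1h, Galns and Asah1 were not used here. CACGTG, which reads the same on both strands, was present in promoters of 13 of these 39 genes (33.3%), against 8.09% of 27025 genes with an entry. Counted by promoter, it was in 13 of 47, against 7.15% of 32851. The longer palindrome TCACGTGA, which contains it, was in 6 of the 39 genes (15.4%), against 1.12% of all genes, and the form extended once more, to GT on its left and AC on its right, was in Cln3, against 0.37% of all genes. The 13 genes were spread over classes: 6 of 16 hydrolases, 4 of 11 pump subunits, 3 of 7 membrane proteins, and none of the 3 activator and granulin genes or the 2 transcription factors. A match describes these letters and is not evidence that a factor binds there.

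The 250 bases before the annotated start are shown in full for Lamp1 (chr8:13158911-13159160, plus strand), which holds the hexamer 4 times, and for Cln3 (chr7:126583237-126583486, minus strand), which holds the longest form. Capitals mark the hexamer, or the longer palindrome where it is extended.
Lamp1: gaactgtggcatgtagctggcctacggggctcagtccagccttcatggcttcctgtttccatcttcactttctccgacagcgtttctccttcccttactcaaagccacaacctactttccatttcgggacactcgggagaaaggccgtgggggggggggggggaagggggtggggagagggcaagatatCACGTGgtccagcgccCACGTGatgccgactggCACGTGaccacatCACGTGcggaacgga
Cln3: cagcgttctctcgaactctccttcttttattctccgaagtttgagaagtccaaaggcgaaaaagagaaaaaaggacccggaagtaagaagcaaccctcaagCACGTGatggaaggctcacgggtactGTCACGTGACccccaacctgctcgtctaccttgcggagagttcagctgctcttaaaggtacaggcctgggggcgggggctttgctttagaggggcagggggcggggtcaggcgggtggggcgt

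The next windows, of 30 bases each with the motif in capitals, put hydrolases beside pump subunits that also hold CACGTG. The capitals are CACGTG alone in the hydrolases and the longer TCACGTGA in the pump subunits. That split follows from the genes chosen and is not one between the classes. The hydrolase Gla also holds TCACGTGA, and the pump subunit Atp6v0b holds CACGTG without the extension. Motif length therefore cannot be related to expression from these windows. They lie at chr11:101070009-101070038 (Naglu, plus strand), chr12:102439124-102439153 (Lgmn, minus), chr9:114401018-114401047 (Glb1, plus), chr8:105566050-105566079 (Atp6v0d1, minus), chr17:26676387-26676416 (Atp6v0e, plus) and chr16:44139373-44139402 (Atp6v1a, minus). Over all listed genes with a promoter, CACGTG was in 4 of the 10 that rose at an adjusted p under 0.05 in LPC_Ipsil against Sham_Ipsil. It was in 9 of the 29 that did not, and a link of motif to expression was not tested.
Naglu: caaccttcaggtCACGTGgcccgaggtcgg
Lgmn: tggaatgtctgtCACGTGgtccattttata
Glb1: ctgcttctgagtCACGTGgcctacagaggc
Atp6v0d1: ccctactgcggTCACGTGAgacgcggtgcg
Atp6v0e: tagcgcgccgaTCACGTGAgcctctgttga
Atp6v1a: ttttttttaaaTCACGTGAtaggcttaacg

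Per unit of gene length, most pump subunits lay above most hydrolases in Sham_Ipsil. There, by the authors' FPKM (fragments scaled by gene length and library total), Psap, the precursor of the saposins that help hydrolases reach their lipid substrates, had the highest level of the list at 309 ± 39.8 FPKM (SD, n = 3). Lamp1, the main glycoprotein of the lysosomal membrane, followed at 117 ± 12.04 FPKM. The V0 ring subunit Atp6v0c was at 98.5 ± 9.01 FPKM, and apart from Atp6v0d2 the lowest pump subunit was Atp6v0e at 6.70 ± 0.641 FPKM. Among hydrolases the range ran from 1.29 ± 0.349 FPKM for Manba, a beta-mannosidase, to 50.01 ± 9.69 FPKM for the protease Lgmn. Several of the hydrolases with large fold changes after LPC started low on this scale: Gusb at 3.01 ± 0.311, Naglu at 2.57 ± 0.638 and Man2b1 at 5.28 ± 0.521 FPKM.

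The first comparison asks what LPC injury did to these genes relative to the sham site. Of the 45 genes tested, 10 were higher in LPC_Ipsil at an adjusted p under 0.05 and 0 were lower, where 5.19% of all 16795 tested genes were called, 4.19% higher and 0.994% lower (edgeR quasi-likelihood test fitted over all genes, Benjamini-Hochberg adjustment). The calls were uneven over the classes. Hydrolases rose in 6 of 18 cases, with a median log2 fold change of 0.54, and membrane proteins in 3 of 7, with a median of 0.57, while 0 of 15 pump subunits passed the test in either direction, with a median of -0.08. The median over all tested genes was 0.01. At an unadjusted p under 0.05, 21 of the 45 genes were higher and 5 lower, where 12.8% and 7.43% of all genes were. Libraries of the 2 groups did not overlap for 15 genes that were higher in LPC_Ipsil, where this held for 14% of all genes, and for 8 that were lower, where it held for 13.5%, and those 8 were 6 V1 subunits and both accessory subunits.

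**Figure D1:**
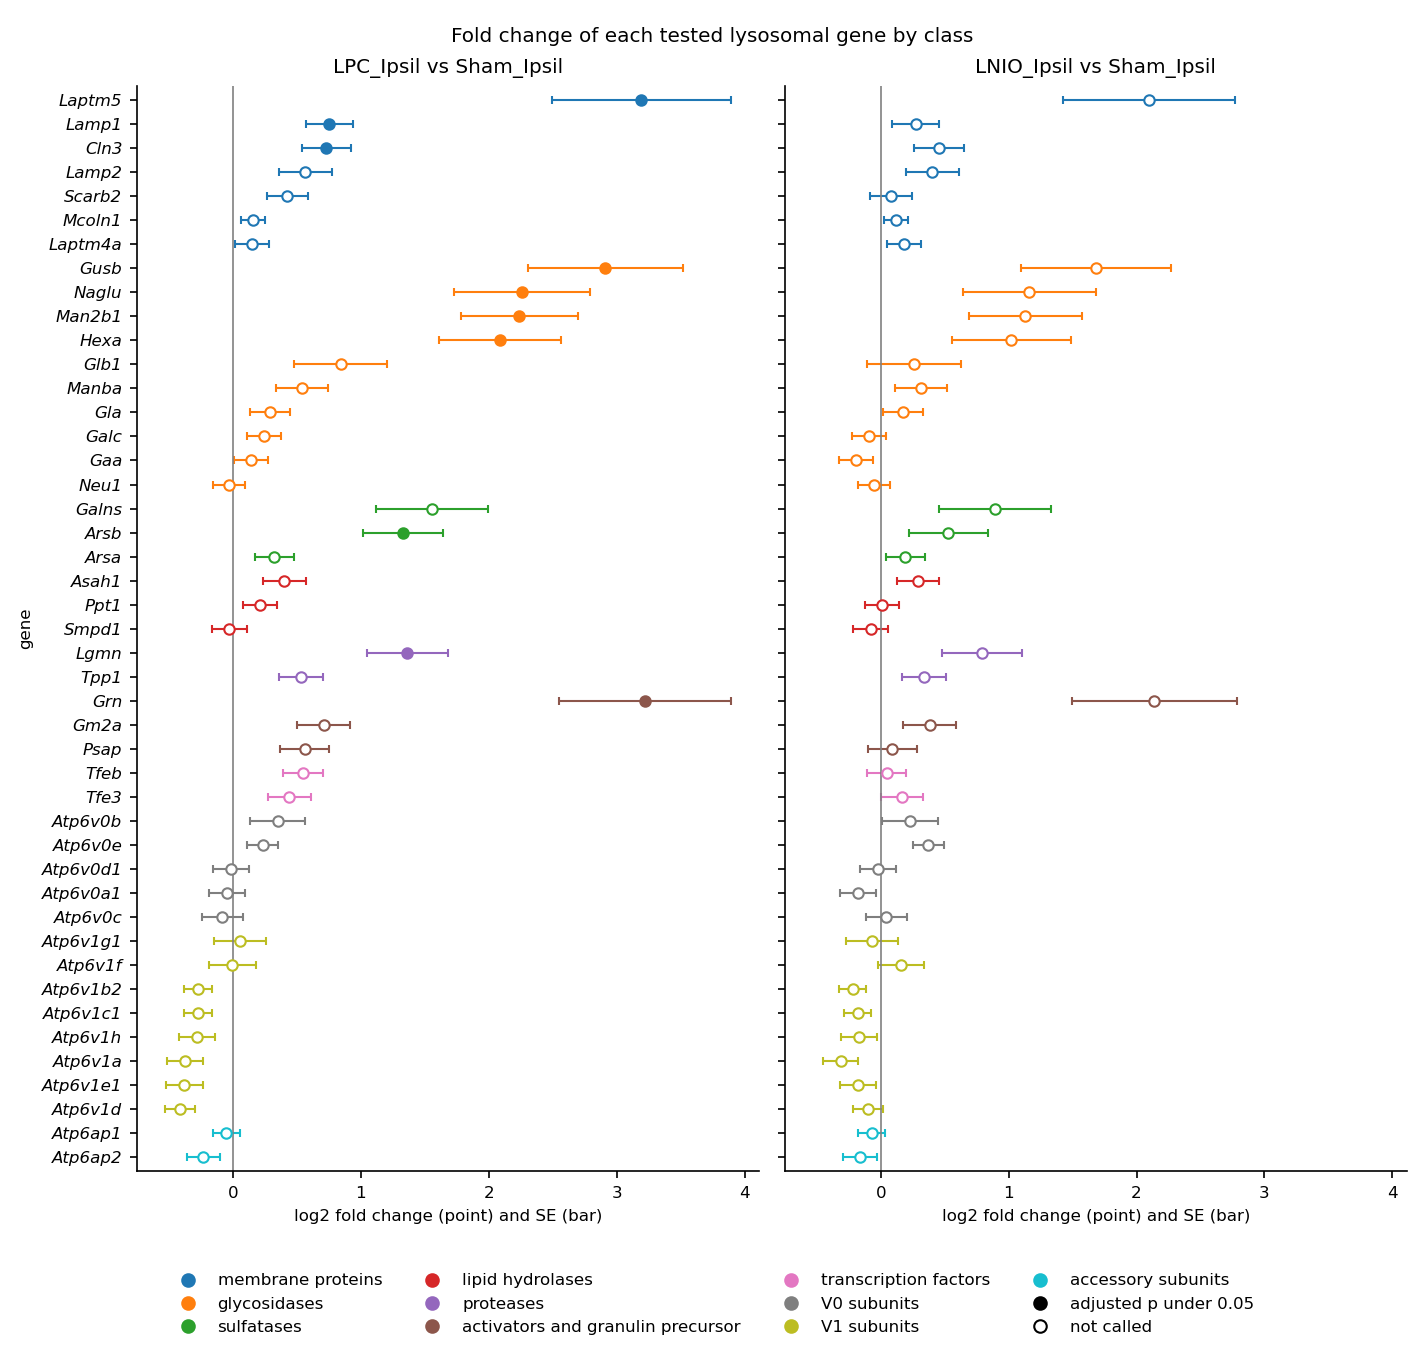
Log2 fold change (points) with its SE (bars) of the 45 tested genes, ordered by class, for LPC_Ipsil over Sham_Ipsil on the left and LNIO_Ipsil over Sham_Ipsil on the right. Filled points passed an adjusted p under 0.05: 10 genes on the left, all to the right of 0, and 0 genes on the right, while the V0, V1 and accessory subunits of the pump lie between -0.41 and 0.37 in both panels.

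Glycosidases, which take sugars off glycoproteins, glycolipids and glycosaminoglycans, held 4 of the 6 called hydrolases. Gusb, beta-glucuronidase, had 196, 116 and 16.7 CPM in LPC_Ipsil, against 15.8, 14.9 and 13.02 CPM in Sham_Ipsil, and rose by a log2 fold change of 2.91 ± 0.60 (SE; adjusted p = 0.0243). Replicates 1 and 2 of LPC_Ipsil were far above every sham library, and replicate 3 was just above the highest of them. Man2b1, the lysosomal alpha-mannosidase, had 356, 227 and 55.8 CPM in LPC_Ipsil, against 48.9, 40.8 and 45.5 CPM in Sham_Ipsil (log2 fold change 2.24 ± 0.46, adjusted p = 0.0243). Hexa, the alpha subunit of beta-hexosaminidase, which degrades GM2 ganglioside, had 324, 206 and 49.7 CPM in LPC_Ipsil, against 45.95, 42.2 and 48.5 CPM in Sham_Ipsil (log2 fold change 2.09 ± 0.48, adjusted p = 0.0283). The same split within LPC_Ipsil held for these genes, with replicate 3 close to sham. Naglu, which removes N-acetylglucosamine from heparan sulfate, had 54.7, 42.2 and 7.19 CPM in LPC_Ipsil, against 5.92, 9.39 and 6.53 CPM in Sham_Ipsil (log2 fold change 2.26 ± 0.53, adjusted p = 0.0297), and here replicate 3 fell within the sham range, so the groups overlapped.

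The other glycosidases did not pass the test. Glb1, beta-galactosidase, had 56.4, 24.98 and 13.1 CPM in LPC_Ipsil, against 15.5, 21.96 and 15.2 CPM in Sham_Ipsil (log2 fold change 0.84 ± 0.36, adjusted p = 0.211). Galc, which cleaves the myelin lipid galactosylceramide, had 47.2, 47.6 and 45.3 CPM in LPC_Ipsil, against 37.9, 38.4 and 41.9 CPM in Sham_Ipsil (log2 fold change 0.25 ± 0.13, adjusted p = 0.32). The Galc groups did not overlap, but the step between them was small and replicate 3 did not stand apart from the other LPC_Ipsil libraries. Manba, Gla (alpha-galactosidase), Gaa (acid alpha-glucosidase) and Neu1 (a sialidase) had log2 fold changes of 0.54, 0.29, 0.14 and -0.03, with adjusted p-values from 0.149 to 0.922.

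Among the sulfatases, which remove sulfate groups from sugars and lipids, Arsb, the sulfatase of dermatan sulfate, had 314, 191 and 104 CPM in LPC_Ipsil, against 76.1, 92.5 and 73.6 CPM in Sham_Ipsil, and rose by a log2 fold change of 1.33 ± 0.31 (adjusted p = 0.0285). Galns, which acts on keratan sulfate, had 26.8, 16.7 and 4.35 CPM in LPC_Ipsil, against 4.72, 5.68 and 5.88 CPM in Sham_Ipsil (log2 fold change 1.55 ± 0.44, adjusted p = 0.0564). Arsa, which degrades the myelin lipid sulfatide, had 39.5, 28.2 and 25.3 CPM in LPC_Ipsil, against 23.5, 28.6 and 22.3 CPM in Sham_Ipsil (log2 fold change 0.32 ± 0.15, adjusted p = 0.259). Thus Galns had a larger fold change than Arsb but missed the threshold, LPC_Ipsil replicate 3 lying below every sham library.

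None of the 3 lipid hydrolases passed the test. Asah1, acid ceramidase, had 93.99, 88.1 and 53.1 CPM in LPC_Ipsil, against 66.9, 55.1 and 56.1 CPM in Sham_Ipsil (log2 fold change 0.40 ± 0.17, adjusted p = 0.184). Ppt1, which removes palmitate from proteins, had 180.3, 146 and 128 CPM in LPC_Ipsil, against 140.2, 123 and 129 CPM in Sham_Ipsil (log2 fold change 0.21 ± 0.13, adjusted p = 0.408). Smpd1, acid sphingomyelinase, had 68.3, 73.04 and 75.8 CPM in LPC_Ipsil, against 65.4, 91.2 and 65.4 CPM in Sham_Ipsil (log2 fold change -0.03 ± 0.14, adjusted p = 0.933). In all 3 genes the groups overlapped.

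Of the proteases, Lgmn, the asparaginyl endopeptidase legumain, had 467, 336 and 149.6 CPM in LPC_Ipsil, against 147, 123 and 101 CPM in Sham_Ipsil, and rose by a log2 fold change of 1.36 ± 0.32 (adjusted p = 0.028). Tpp1, a tripeptidyl peptidase, had 176, 119 and 103 CPM in LPC_Ipsil, against 90.1, 94.3 and 90.6 CPM in Sham_Ipsil (log2 fold change 0.53 ± 0.17, adjusted p = 0.0887). Neither gene's groups overlapped, though LPC_Ipsil replicate 3 was within a few CPM of the highest sham library in Lgmn.

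The largest fold change among the 45 tested genes was that of Grn, the precursor of the granulin peptides and a regulator of lysosomal enzyme function in microglia. It had 689, 349 and 53.00 CPM in LPC_Ipsil, against 40.3, 37.98 and 38.8 CPM in Sham_Ipsil, and rose by a log2 fold change of 3.22 ± 0.67 (adjusted p = 0.0245). The sham libraries agreed to within a few CPM, and LPC_Ipsil replicate 3 was above all of them but far below replicates 1 and 2. Gm2a, the GM2 ganglioside activator, had 165, 116 and 70.8 CPM in LPC_Ipsil, against 71.2, 76.6 and 67.7 CPM in Sham_Ipsil (log2 fold change 0.71 ± 0.21, adjusted p = 0.0644). Psap had 1712, 1240 and 1033 CPM in LPC_Ipsil, against 764, 1004 and 933 CPM in Sham_Ipsil (log2 fold change 0.56 ± 0.19, adjusted p = 0.106), and its groups did not overlap.

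All 7 membrane proteins had positive fold changes, and 3 passed the test. Laptm5, a lysosomal protein of microglia and blood cells, had 542, 299.6 and 42.1 CPM in LPC_Ipsil, against 32.3, 34.7 and 29.8 CPM in Sham_Ipsil, and rose by a log2 fold change of 3.19 ± 0.70 (adjusted p = 0.0263). Lamp1 had 699, 536 and 441 CPM in LPC_Ipsil, against 368, 315 and 313 CPM in Sham_Ipsil (log2 fold change 0.75 ± 0.18, adjusted p = 0.0309). Cln3, a membrane protein whose loss causes a childhood lysosomal storage disease, had 30.2, 22.9 and 16.4 CPM in LPC_Ipsil, against 15.3, 15.3 and 11.4 CPM in Sham_Ipsil (log2 fold change 0.73 ± 0.19, adjusted p = 0.0422). Every LPC_Ipsil library exceeded every sham library in these 3 genes, and the fold changes of Lamp1 and Cln3 were smaller than that of Laptm5. Lamp2, the second major membrane glycoprotein and a protein of autophagic uptake, had 215, 176 and 121 CPM in LPC_Ipsil, against 141, 105 and 99.4 CPM in Sham_Ipsil (log2 fold change 0.57 ± 0.21, adjusted p = 0.138). Scarb2, which carries beta-glucocerebrosidase to the lysosome, had 275, 244 and 245 CPM in LPC_Ipsil, against 229, 170.5 and 169.5 CPM in Sham_Ipsil (log2 fold change 0.42 ± 0.16, adjusted p = 0.152). Mcoln1, a calcium channel, and Laptm4a, a transmembrane protein, had log2 fold changes of 0.16 and 0.15 with adjusted p-values of 0.372 and 0.587.

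**Figure D2:**
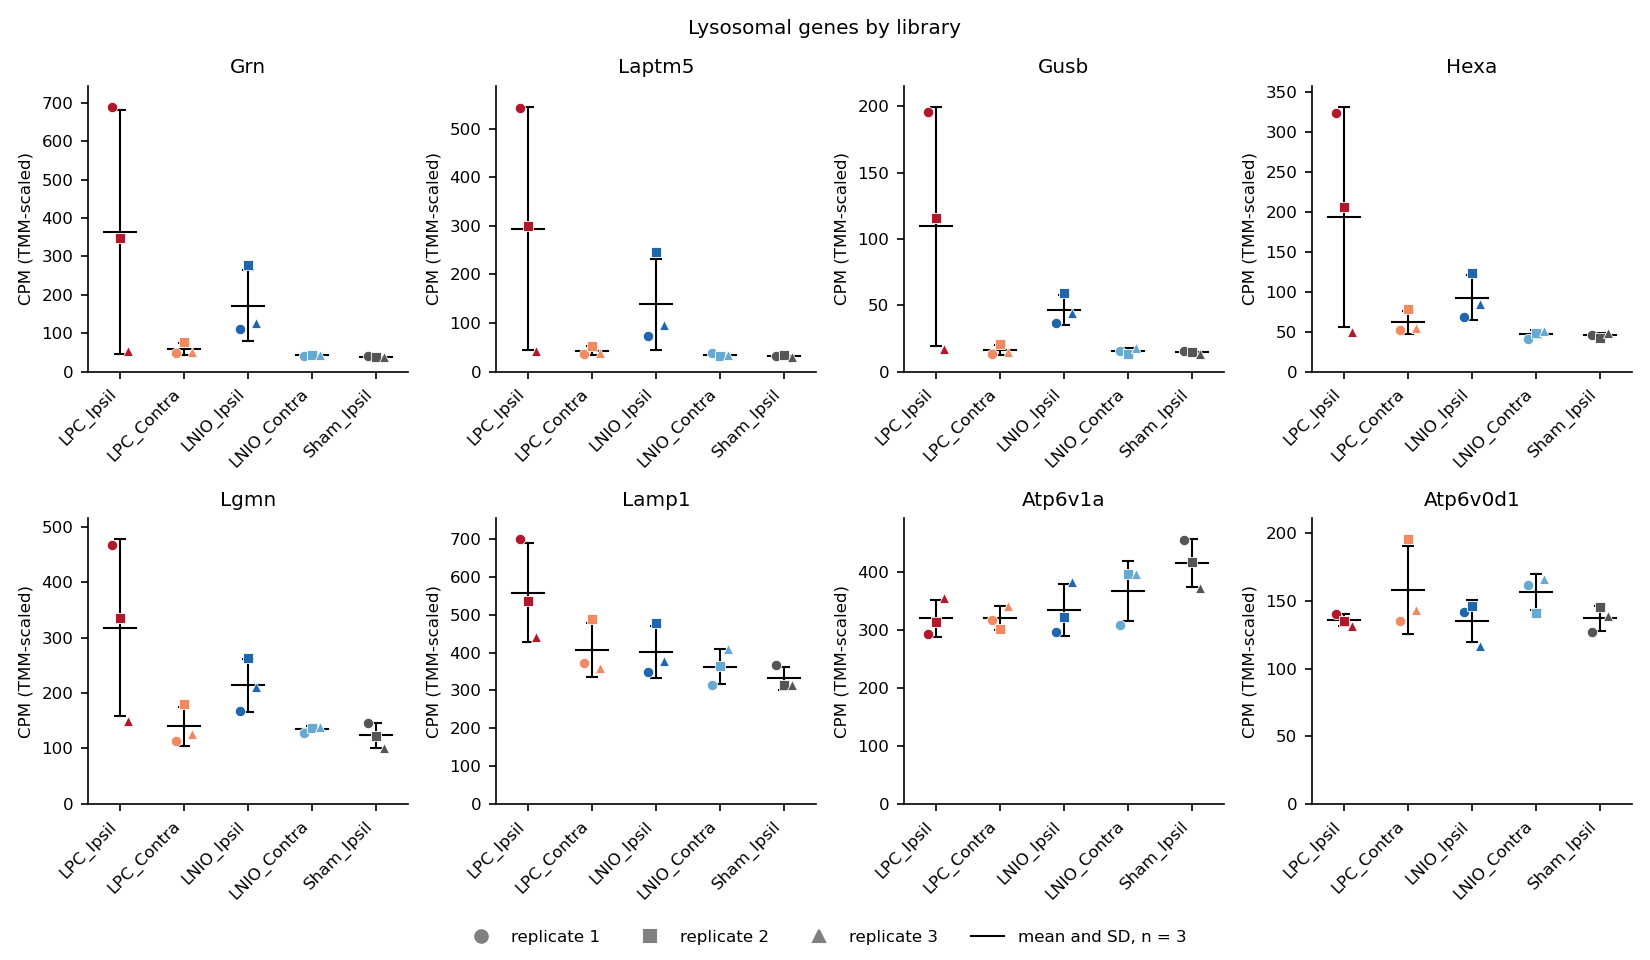
CPM of 8 genes in each of the 15 libraries, by group on the x axis; symbols give the replicate number and black bars the mean and SD (n = 3). Grn, Laptm5, Gusb, Hexa, Lgmn and Lamp1 are high in LPC_Ipsil replicates 1 and 2 and lower in replicate 3, as in Grn with 689, 349 and 53.0 CPM, while Atp6v1a and Atp6v0d1 do not show this split.

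None of the 15 tested pump subunits of the list passed the test. Tcirg1, a form of V0 subunit a outside the list, did pass and is described with the paralogues. In the V0 part, Atp6v0c, whose protein forms most of the proton-carrying ring, had 339, 326 and 339.6 CPM in LPC_Ipsil, against 324, 393 and 348 CPM in Sham_Ipsil (log2 fold change -0.08 ± 0.16, adjusted p = 0.834). Atp6v0d1, which couples the ring to the central stalk, had 140.3, 135 and 132 CPM in LPC_Ipsil, against 127, 146 and 139 CPM in Sham_Ipsil (log2 fold change -0.01 ± 0.14, adjusted p = 0.969). These groups overlapped, and the LPC_Ipsil libraries lay close together. Atp6v0a1, the form of the large membrane subunit found in neurons, had 342, 329.8 and 356 CPM in LPC_Ipsil, against 316, 375 and 372 CPM in Sham_Ipsil (log2 fold change -0.05 ± 0.14, adjusted p = 0.894). Atp6v0b, a further ring subunit, had 43.1, 38.4 and 31.97 CPM in LPC_Ipsil, against 24.7, 31.8 and 32.6 CPM in Sham_Ipsil (log2 fold change 0.35 ± 0.22, adjusted p = 0.402). Atp6v0e, a small membrane subunit, had 36.2, 31.5 and 25.6 CPM in LPC_Ipsil, against 26.6, 23.9 and 28.9 CPM in Sham_Ipsil (log2 fold change 0.23 ± 0.12, adjusted p = 0.308). The 5 tested V0 genes had a median log2 fold change of -0.02.

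The V1 subunits had mostly negative fold changes, none of which passed the test. The 8 genes had a median log2 fold change of -0.28, 7 of them were negative, and 5 of the 8 had an unadjusted p under 0.05 in that direction, where 7.43% of all tested genes did. Atp6v1d, a subunit of the central stalk, had 138, 142 and 148 CPM in LPC_Ipsil, against 185, 204 and 181 CPM in Sham_Ipsil (log2 fold change -0.41 ± 0.12, adjusted p = 0.0562). Atp6v1a, the catalytic subunit, had 292, 313 and 354 CPM in LPC_Ipsil, against 454, 417 and 372 CPM in Sham_Ipsil (log2 fold change -0.37 ± 0.14, adjusted p = 0.142). In both genes all LPC_Ipsil libraries lay under all sham libraries. Atp6v1b2, the other subunit of the ATP-splitting head, had 353, 368 and 394 CPM in LPC_Ipsil, against 422, 482 and 446 CPM in Sham_Ipsil (log2 fold change -0.28 ± 0.11, adjusted p = 0.168). Atp6v1e1, of the peripheral stalk, had 183, 177 and 198 CPM in LPC_Ipsil, against 238, 249.7 and 239 CPM in Sham_Ipsil (log2 fold change -0.38 ± 0.14, adjusted p = 0.144). Atp6v1c1, the subunit whose binding regulates assembly, had 166, 161 and 157 CPM in LPC_Ipsil, against 197, 203 and 185 CPM in Sham_Ipsil (log2 fold change -0.28 ± 0.11, adjusted p = 0.164). These 3 genes, too, were lower in every LPC_Ipsil library than in any sham library. Atp6v1f, of the central stalk, had 66.5, 58.8 and 47.9 CPM in LPC_Ipsil, against 60.5, 56.6 and 56.8 CPM in Sham_Ipsil, and its groups overlapped. Atp6v1h, a regulatory subunit, and Atp6v1g1, of the peripheral stalk, had log2 fold changes of -0.28 and 0.06, and the accessory subunits Atp6ap1 and Atp6ap2 had -0.05 and -0.23. In 4 other fits some V1 genes passed the test. DESeq2 called Atp6v1b2 and Atp6v1d lower in LPC_Ipsil, where 9% of all genes were called in either direction. By edgeR, Atp6v1d was called lower without LPC_Contra replicate 2, without LPC_Contra replicate 3 and without LNIO_Contra replicate 3, where 7.19%, 4.53% and 3.96% of all genes were called, and Atp6v1e1 in the first of these fits. In these LPC_Ipsil libraries the 7 neuronal markers summed to 3191, 3512 and 4071 CPM, against 4229 to 5573 CPM in Sham_Ipsil. All 7 had negative fold changes, with a median of -0.47 on the log2 scale. By edgeR 4 of them were lower at an unadjusted p under 0.05, where 7.43% of all tested genes were. Nefl, a neurofilament gene, was the 1 of them that passed the test (log2 fold change -0.57 ± 0.16, adjusted p = 0.0485). The part of neuronal RNA in the pump values was not tested.

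Summed over genes, the classes separated by library. Hydrolases summed to 2664, 1902 and 1039 CPM in LPC_Ipsil, against 928 to 1009 CPM in Sham_Ipsil. The 15 tested pump subunits of the list, which leaves out Tcirg1, summed to 2715, 2681 and 2785 CPM in LPC_Ipsil, against 3041 to 3258 CPM in Sham_Ipsil. Hydrolase sums thus differed more than pump sums among the 3 LPC_Ipsil libraries, and the ratio of hydrolase to pump CPM was 0.981, 0.709 and 0.373 in LPC_Ipsil, against 0.324, 0.31 and 0.305 in Sham_Ipsil. The 8 microglial markers were high in the same libraries and summed to 2176, 1511 and 438 CPM in LPC_Ipsil, against 312 to 363 CPM in Sham_Ipsil. All 8 were above 0 in every library and rose after LPC, such as Csf1r (log2 fold change 2.40 ± 0.45, adjusted p = 0.0243), a growth factor receptor of microglia. The ratio of hydrolase CPM to microglial marker CPM was 1.22, 1.26 and 2.37 in LPC_Ipsil, against 2.71, 3.15 and 2.98 in Sham_Ipsil. For single genes against Csf1r, Grn had a CPM ratio of 1.03, 0.799 and 0.431 in LPC_Ipsil, against 0.48, 0.511 and 0.529 in Sham_Ipsil. Hexa had a ratio of 0.487, 0.472 and 0.404 in LPC_Ipsil, against 0.547, 0.567 and 0.663 in Sham_Ipsil. Relative to Csf1r, Grn was therefore higher in LPC_Ipsil replicates 1 and 2 and Hexa was lower in all 3 libraries. The hydrolases did not share 1 direction. Gusb had a ratio of 0.295, 0.265 and 0.136 in LPC_Ipsil, against 0.178 to 0.201 in Sham_Ipsil. Man2b1 had 0.535, 0.519 and 0.454, against 0.549 to 0.621. The membrane protein Laptm5 had 0.814, 0.686 and 0.342, against 0.384 to 0.467. Csf1r had the largest log2 fold change of the 8 markers, which ran from 1.23 to 2.40 with a median of 1.84. Ratios to another marker could thus differ in direction, and they were not computed. The part of microglial number in the hydrolase result was not tested. Some markers of other glia and of vessels also rose after LPC. Of 4 oligodendrocyte precursor markers 3 rose, with a summed 396, 310.2 and 303 CPM in LPC_Ipsil, against 181 to 233 CPM in Sham_Ipsil. All 6 astrocyte markers had positive fold changes, 5 of them at an unadjusted p under 0.05 by edgeR, where 12.8% of all genes were higher. Gfap and Aldh1l1 passed the test (log2 fold change 2.05 ± 0.46 and 0.66 ± 0.15, adjusted p = 0.027 and 0.0256), and the list summed to 7482, 6949 and 5600 CPM in LPC_Ipsil, against 4513 to 5083 CPM in Sham_Ipsil. All 5 endothelial markers had positive fold changes, 4 of them at an unadjusted p under 0.05 by edgeR. In all 5 the LPC_Ipsil libraries lay above every sham library, as held for 14% of all genes. Slc2a1, a glucose transporter, was the 1 that passed the test (log2 fold change 0.63 ± 0.14, adjusted p = 0.0262), and the list summed to 191, 186 and 156 CPM in LPC_Ipsil, against 110.5 to 116 CPM in Sham_Ipsil. This rise was not confined to the injured side, as the list summed to 146 to 259 CPM in LPC_Contra. All 5 endothelial markers were higher in LPC_Contra than in Sham_Ipsil at an unadjusted p under 0.05 by edgeR (median log2 fold change 0.762), where 4.24% of all genes were. In LPC_Ipsil over LPC_Contra all 5 had negative fold changes, with a median of -0.094. By edgeR none of the 7 mature oligodendrocyte markers and none of the 5 pericyte and fibroblast markers was called, with 0 and 2 higher at an unadjusted p under 0.05. The part of these cells in the hydrolase result was not tested. Among markers of other immune cells, none of the 3 tested monocyte and 5 border macrophage genes was called. Of 5 neutrophil genes 2 were tested, and they differed in direction. Csf3r rose (log2 fold change 3.23 ± 0.64, adjusted p = 0.0243). The other had a log2 fold change of -0.38 (adjusted p = 0.624 by edgeR), with every LPC_Ipsil library below every sham library, as held for 13.5% of all genes. The remaining 3, S100a8, S100a9 and Ly6g, were too low to test, Ly6g being at 0 in every library.

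**Figure D3:**
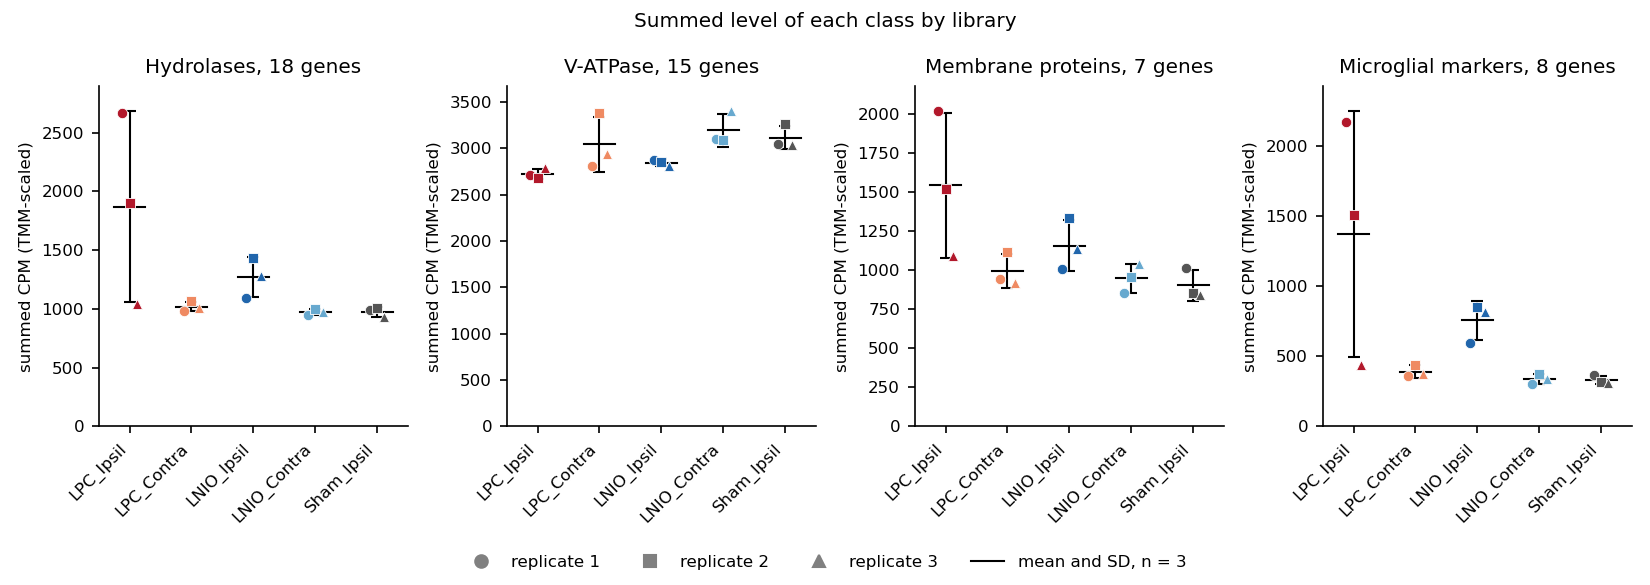
Summed CPM of the 18 hydrolases, the 15 tested pump subunits, the 7 membrane proteins and the 8 microglial markers in each library, by group; symbols give the replicate number and black bars the mean and SD (n = 3). Hydrolases, membrane proteins and microglial markers are all highest in LPC_Ipsil replicate 1, with hydrolases at 2664, 1902 and 1039 CPM in LPC_Ipsil, and the pump sums stay between 2681 and 3401 CPM.

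Without LPC_Ipsil replicate 3, 19 of the 45 genes were called higher in LPC_Ipsil and 0 lower, where 8.01% of all tested genes were called higher. Since replicate 3 was left out for its expression, these calls cannot be weighed like those of the full fit. The fold changes of Grn, Gusb and Hexa were then 3.73 ± 0.37, 3.42 ± 0.25 and 2.54 ± 0.25 on the log2 scale, and Lamp2, Glb1, Manba, Galns, Asah1, Tpp1, Psap, Gm2a and Tfe3 joined the 10 genes. Atp6v1d remained uncalled (-0.44 ± 0.14, adjusted p = 0.0639), as did the other pump subunits of the list. Leaving out LPC_Ipsil replicate 1 or 2 or any sham library left 0 of the 45 genes called, where at most 0.00595% of all genes were. Fitting the 2 compared groups alone also left 0 of the 45 (0% of all genes). The loss of calls in these fits thus held for the whole table and was not particular to the list. Keeping all genes without the filter left Lamp1 and Man2b1, where 2.1% of all genes were called.

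The transcription factors of the list had small positive differences. Tfeb had 17.7, 17.7 and 17.9 CPM in LPC_Ipsil, against 12.8, 11.3 and 12.4 CPM in Sham_Ipsil (log2 fold change 0.55 ± 0.15, adjusted p = 0.0534). Its 3 LPC_Ipsil libraries were nearly equal and lay above all sham libraries, so the spread of the hydrolases over replicates was not seen in Tfeb. Tfeb was called higher by DESeq2 and by edgeR without LPC_Contra replicate 1 and without LPC_Contra replicate 2, where 9%, 4.41% and 7.19% of all genes were called. Tfe3 had 55.98, 52.9 and 39.04 CPM in LPC_Ipsil, against 27.96, 41.3 and 39.8 CPM in Sham_Ipsil (log2 fold change 0.44 ± 0.17, adjusted p = 0.148). Of 15 other tested genes of MiT/TFE control and lysosomal nutrient sensing, Fnip2, a partner of folliculin, rose (log2 fold change 0.44 ± 0.10, adjusted p = 0.0263). Flcn (folliculin), Mitf and Lamtor1, a lysosomal anchor of the mTORC1 pathway, had log2 fold changes of 0.35, 0.50 and 0.34 with adjusted p-values of 0.129, 0.165 and 0.268.

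Lysosomal genes outside the list were compared in the same way. Of 31 other hydrolases and activators, 11 rose after LPC and 0 fell, with a median log2 fold change of 0.58. They included Npc2, which carries cholesterol out of lysosomes (log2 fold change 1.58 ± 0.35, adjusted p = 0.0262), the mannosidase Man2b2 (log2 fold change 1.48 ± 0.32, adjusted p = 0.0247) and Lipa, the acid lipase of cholesteryl esters (log2 fold change 1.12 ± 0.25, adjusted p = 0.0247). Of 28 other membrane proteins and transporters, 6 rose and 0 fell, with a median of 0.32. Slc11a1, a metal transporter of phagocytes, rose by a log2 fold change of 3.76 ± 0.81 (adjusted p = 0.0257), the peptide transporter Slc15a3 by 3.61 ± 0.80 (adjusted p = 0.027), the macrophage glycoprotein Cd68 by 3.58 ± 0.75 (adjusted p = 0.0245) and the nucleoside transporter Slc29a3 by 0.93 ± 0.19 (adjusted p = 0.0243). Of 11 genes of enzyme sorting by mannose 6-phosphate, Nagpa, which uncovers the tag, rose (log2 fold change 1.22 ± 0.26, adjusted p = 0.0243), and M6pr, a receptor of the tag, had a log2 fold change of 0.35 ± 0.14 (adjusted p = 0.154).

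Paralogues of pump subunits did not all behave alike. Among the forms of subunit a, Tcirg1, the form of osteoclasts and other macrophage-lineage cells, had 91.3, 72.6 and 30.4 CPM in LPC_Ipsil, against 27.1, 19.4 and 22.6 CPM in Sham_Ipsil, and rose by a log2 fold change of 1.49 ± 0.30 (adjusted p = 0.0243). It was the 1 gene called of 7 tested pump genes outside the list. By FPKM, Tcirg1 made up 9.03% to 23.4% of subunit a in LPC_Ipsil and 14.4% to 17.0% in LNIO_Ipsil, against 5.96% to 9.20% in Sham_Ipsil. Atp6v0a1 made up 61.7% to 74.5% in LPC_Ipsil and 69.0% to 71.8% in LNIO_Ipsil, against 75.5% to 81.2% in Sham_Ipsil. Shares over a fixed sum move together, and these were not tested. Atp6v0a2, another form, had 84.6, 83.2 and 80.98 CPM in LPC_Ipsil, against 65.8, 61.1 and 59.6 CPM in Sham_Ipsil (log2 fold change 0.42 ± 0.13, adjusted p = 0.0709).

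**Figure D4:**
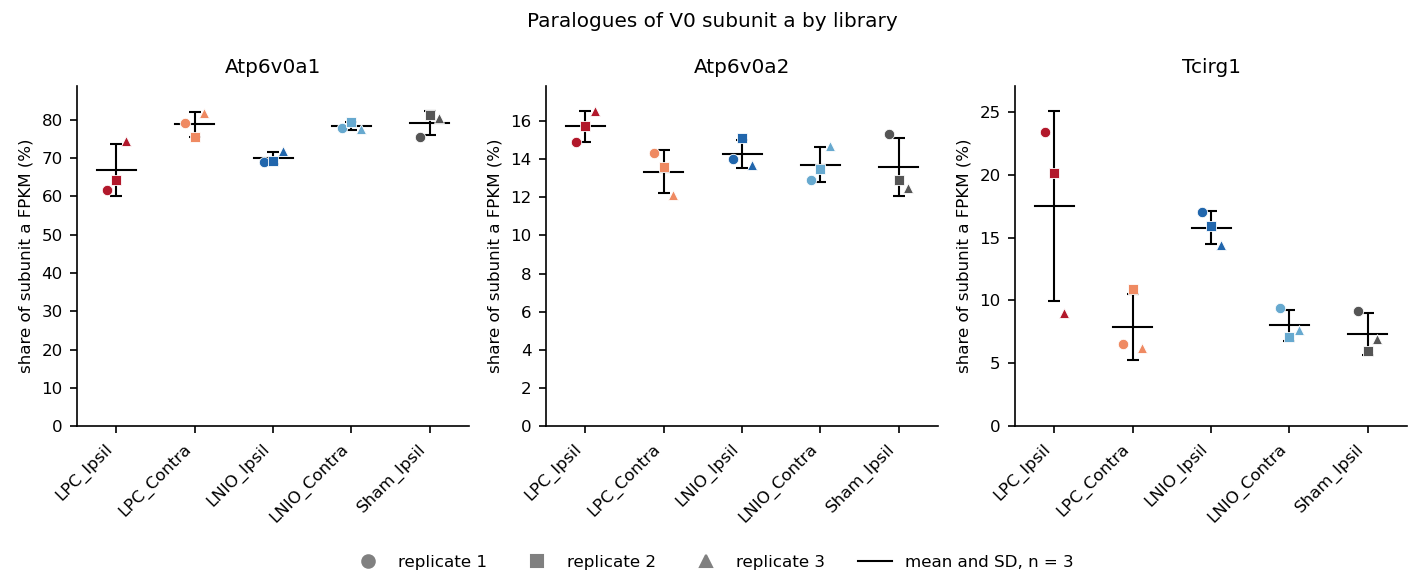
Share of each main form of V0 subunit a in the summed FPKM of its 4 paralogues (y axis, percent), by library and group; symbols give the replicate number and black bars the mean and SD (n = 3). Tcirg1 reaches 23.4% in LPC_Ipsil and 17.0% in LNIO_Ipsil, against at most 9.20% in Sham_Ipsil, and the LPC_Ipsil library at 9.03% is replicate 3.

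The other pairs differed in how evenly they were split. Atp6v1b2 made up at least 99.9% of subunit B over Atp6v1b1, and Atp6v1e1 at least 99.9% of subunit E over Atp6v1e2. Atp6v1c1 made up 96.5% to 99.6% of subunit C, with Atp6v1c2 as the rest. For subunit G, Atp6v1g2, a neuronal form, exceeded Atp6v1g1 in all 15 libraries, though the forms were nearly equal in LPC_Ipsil replicate 1, and Atp6v1g1 made up 28.5% to 48.9% in LPC_Ipsil, against 28.1% to 39.0% in Sham_Ipsil. For subunit e, Atp6v0e2 exceeded Atp6v0e, which made up 7.96% to 13.7% in LPC_Ipsil, against 7.24% to 9.30% in Sham_Ipsil. The differences of Atp6v1g2 and Atp6v0e2 between LPC_Ipsil and Sham_Ipsil did not pass the test (log2 fold change -0.22 ± 0.18 and -0.13 ± 0.13, adjusted p = 0.541 and 0.637).

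Atp6v0d2, the paralogue of Atp6v0d1 known from osteoclasts and macrophages, was almost absent outside LPC_Ipsil. It had 25, 35 and 2 raw counts in LPC_Ipsil, 0 in each LPC_Contra library, 1, 2 and 5 in LNIO_Ipsil, 0, 0 and 2 in LNIO_Contra, and 1, 0 and 0 in Sham_Ipsil. The ratio of its summed counts per library size, LPC_Ipsil over Sham_Ipsil, was 58.9, with an exact 95% interval of 10.2 to 2360 that covers counting error only. For LNIO_Ipsil over Sham_Ipsil the ratio was 7.47, with an interval of 1.0 to 331. It made up at most 0.799% of subunit d by FPKM in any library, Atp6v0d1 being the rest. In an edgeR fit without the low-count filter, over 24943 genes, Atp6v0d2 had a log2 fold change of 5.35 ± 1.22 in LPC_Ipsil over Sham_Ipsil (adjusted p = 0.0367), a size that depends on the prior count.

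The second comparison asks the same of the L-NIO lesion. None of the 45 genes, nor any of the 16795 tested, passed an adjusted p under 0.05 in LNIO_Ipsil against Sham_Ipsil by edgeR (0%). At an unadjusted p under 0.05, 9 of the 45 were higher and 1 was lower, where 5.77% of all genes were higher and 3.1% lower. DESeq2 called 0 of the 45, where it called 1.41% of all genes. Libraries of the groups did not overlap for 12 genes that were higher in LNIO_Ipsil and 5 that were lower, where this held for 10% and 7.88% of all genes. The class medians of log2 fold change were 0.30 for hydrolases, 0.27 for membrane proteins and -0.10 for pump subunits, and -0.02 over all genes.

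Grn had 110.5, 278 and 127 CPM in LNIO_Ipsil, against 40.3, 37.98 and 38.8 CPM in Sham_Ipsil (log2 fold change 2.14 ± 0.65, adjusted p = 0.297). Laptm5 had 72.6, 246 and 96.7 CPM in LNIO_Ipsil, against 32.3, 34.7 and 29.8 CPM in Sham_Ipsil (log2 fold change 2.10 ± 0.67, adjusted p = 0.325). Every LNIO_Ipsil library was above every sham library in both genes, and replicate 2 was the highest. Gusb had 36.95, 59.1 and 44.3 CPM in LNIO_Ipsil, against 15.8, 14.9 and 13.02 CPM in Sham_Ipsil (log2 fold change 1.68 ± 0.58, adjusted p = 0.377). Man2b1 had 79.2, 127 and 89.7 CPM in LNIO_Ipsil, against 48.9, 40.8 and 45.5 CPM in Sham_Ipsil (log2 fold change 1.13 ± 0.44, adjusted p = 0.466). Hexa had 68.5, 124 and 85.2 CPM in LNIO_Ipsil, against 45.95, 42.2 and 48.5 CPM in Sham_Ipsil (log2 fold change 1.02 ± 0.47, adjusted p = 0.558). These enzymes likewise had no overlap with sham. Naglu had 11.3, 21.5 and 15.9 CPM in LNIO_Ipsil, against 5.92, 9.39 and 6.53 CPM in Sham_Ipsil (log2 fold change 1.16 ± 0.52, adjusted p = 0.544). Lgmn had 168, 263 and 211 CPM in LNIO_Ipsil, against 147, 123 and 101 CPM in Sham_Ipsil (log2 fold change 0.79 ± 0.31, adjusted p = 0.466). Galns had 8.90, 12.8 and 8.47 CPM in LNIO_Ipsil, against 4.72, 5.68 and 5.88 CPM in Sham_Ipsil (log2 fold change 0.89 ± 0.44, adjusted p = 0.595), and its groups did not overlap either.

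Other genes of the list lay nearer to sham. Lamp1 had 348, 478 and 378 CPM in LNIO_Ipsil, against 368, 315 and 313 CPM in Sham_Ipsil (log2 fold change 0.27 ± 0.18, adjusted p = 0.745), and its groups overlapped. Cln3 had 18.97, 19.7 and 18.8 CPM in LNIO_Ipsil, against 15.3, 15.3 and 11.4 CPM in Sham_Ipsil (log2 fold change 0.46 ± 0.19, adjusted p = 0.509). Arsb, Tpp1, Gm2a, Lamp2 and Psap had log2 fold changes of 0.53, 0.34, 0.38, 0.40 and 0.09. In the pump, Atp6v0e had 32.4, 35.5 and 34.9 CPM in LNIO_Ipsil, against 26.6, 23.9 and 28.9 CPM in Sham_Ipsil (log2 fold change 0.37 ± 0.12, adjusted p = 0.323). Atp6v1a had 295, 322 and 383 CPM in LNIO_Ipsil, against 454, 417 and 372 CPM in Sham_Ipsil (log2 fold change -0.31 ± 0.14, adjusted p = 0.533). The other 13 pump subunits tested had log2 fold changes between -0.22 and 0.23, and Tfeb and Tfe3 had 0.05 and 0.17.

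In the same LNIO_Ipsil libraries hydrolases summed to 1094, 1431 and 1280 CPM and pump subunits to 2877, 2852 and 2806 CPM, against 928 to 1009 and 3041 to 3258 CPM in Sham_Ipsil. Microglial markers summed to 598, 856 and 818 CPM in LNIO_Ipsil, against 312 to 363 CPM in Sham_Ipsil, and their part was not tested. Of the lysosomal genes outside the list, 0 were called in this comparison, the smallest adjusted p being 0.263 for Tcirg1 (log2 fold change 1.11 ± 0.30). Cd68 had a log2 fold change of 2.63 ± 0.72 (adjusted p = 0.272). Without LPC_Ipsil replicate 3, which shares in the estimate of spread, Hexa, Gusb, Man2b1, Naglu, Grn and Laptm5 passed the test, where 2.35% of all genes did. A fit to the 2 compared groups alone called Hexa, Gusb, Man2b1 and Grn, where 2.16% of all genes were called.

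LNIO_Ipsil was next set against LPC_Ipsil directly, the comparison of the 2 lesions. By edgeR 0 of the 45 genes were called (0% of all genes), with 1 higher and 10 lower at an unadjusted p under 0.05, where 2.95% and 5.44% of all genes were. DESeq2 also called 0 of the 45, where it called 0.0893% of all genes. Libraries of the 2 groups did not overlap for 4 genes that were higher in LNIO_Ipsil, the V1 subunits Atp6v1c1, Atp6v1d, Atp6v1e1 and Atp6v1h, and for 3 that were lower, Scarb2, Galc and Tfeb, where this held for 6.07% and 7.61% of all genes. All 18 hydrolases had negative fold changes, with a median of -0.33 on the log2 scale, and the pump subunits had a median of 0.07. These LNIO_Ipsil and LPC_Ipsil libraries also enter the comparisons with sham, so their directions are not independent of those. Arsb had 75.9, 134 and 139 CPM in LNIO_Ipsil, against 314, 191 and 104 CPM in LPC_Ipsil (log2 fold change -0.80 ± 0.31, adjusted p = 0.559). Gusb differed by a log2 fold change of -1.23 ± 0.56 (adjusted p = 0.594) and Man2b1 by one of -1.11 ± 0.44 (adjusted p = 0.56). In Gusb and Man2b1 all LNIO_Ipsil libraries lay between LPC_Ipsil replicate 3 and the other LPC_Ipsil libraries, and in Arsb LNIO_Ipsil replicate 1 lay below replicate 3. Tfeb had 11.9, 14.2 and 11.5 CPM in LNIO_Ipsil, against 17.7, 17.7 and 17.9 CPM in LPC_Ipsil, without overlap (log2 fold change -0.50 ± 0.15, adjusted p = 0.522). Atp6v1d had 177, 173 and 182 CPM in LNIO_Ipsil, against 138, 142 and 148 CPM in LPC_Ipsil, also without overlap (log2 fold change 0.31 ± 0.12, adjusted p = 0.559). Without LPC_Ipsil replicate 3, Hexa, Gusb, Man2b1, Naglu, Galns, Arsb and Grn were lower in LNIO_Ipsil, where 1.38% of all genes were, and Grn differed by a log2 fold change of -1.60 ± 0.35 (adjusted p = 0.0414).

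Each lesion was also compared with the opposite side of the callosum. In LPC_Ipsil against LPC_Contra 0 of the 45 genes passed the test by edgeR (0% of all genes), 19 were higher and 3 lower at an unadjusted p under 0.05, where 8.53% and 3.59% of all genes were, and DESeq2 called 11 of the 45, where it called 4.17% of all genes. Libraries did not overlap for 8 genes that were higher in LPC_Ipsil and 3 that were lower, where this held for 7.05% and 6.6% of all genes. Gusb had 196, 116 and 16.7 CPM in LPC_Ipsil, against 13.3, 20.5 and 14.97 CPM in LPC_Contra (log2 fold change 2.75 ± 0.60, adjusted p = 0.0629). Grn had 689, 349 and 53.00 CPM in LPC_Ipsil, against 48.9, 76.2 and 49.96 CPM in LPC_Contra (log2 fold change 2.64 ± 0.65, adjusted p = 0.0701). In both genes LPC_Ipsil replicate 3 lay within the contralateral range. Arsb had 314, 191 and 104 CPM in LPC_Ipsil, against 86.8, 69.7 and 88.6 CPM in LPC_Contra, with no overlap (log2 fold change 1.31 ± 0.31, adjusted p = 0.0629). Hydrolases had a median log2 fold change of 0.71 and pump subunits -0.16. Without replicate 3, 16 of the 45 genes were higher in LPC_Ipsil, where 5.36% of all genes were.

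In LNIO_Ipsil against LNIO_Contra 0 of the 45 genes passed the test by edgeR (0% of all genes). At an unadjusted p under 0.05, 7 were higher and 0 lower, where 4.83% and 1.25% of all genes were. DESeq2 called 0 of the 45, where it called 1.04% of all genes. Grn had 110.5, 278 and 127 CPM in LNIO_Ipsil, against 41.8, 43.6 and 43.9 CPM in LNIO_Contra (log2 fold change 1.99 ± 0.64, adjusted p = 0.437). Gusb had 36.95, 59.1 and 44.3 CPM in LNIO_Ipsil, against 15.2, 12.9 and 17.7 CPM in LNIO_Contra (log2 fold change 1.61 ± 0.58, adjusted p = 0.555). Galns had 8.90, 12.8 and 8.47 CPM in LNIO_Ipsil, against 5.29, 4.25 and 4.45 CPM in LNIO_Contra (log2 fold change 1.11 ± 0.44, adjusted p = 0.654). The groups did not overlap in these genes, and this held for 15 genes of the list that were higher in LNIO_Ipsil and 6 that were lower, where 7.9% and 5.23% of all genes had no overlap. Hydrolases had a median of 0.35 and pump subunits -0.17. The replicate numbers were taken to pair these libraries, which the labels do not state. With the numbers as a block 6 genes of the whole table were called but 0 of the 45. The fit to these 2 groups alone called Hexa, Gusb, Man2b1, Naglu, Galns and Grn, and so did the fit without LPC_Ipsil replicate 3, which added Laptm5, where 2.11% and 2.21% of all genes were called.

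The difference between the 2 side effects was tested as an interaction. It was negative for all 18 hydrolases, meaning a smaller excess on the injured side after L-NIO than after LPC. However, 0 of the 45 genes passed the test by edgeR or DESeq2 (0% of all genes by either). By edgeR 0 reached an unadjusted p under 0.05, where 0.578% of all genes did with a positive and 0.441% with a negative difference. The most negative was Gusb at a log2 difference of -1.14 ± 0.81 (adjusted p = 1), and Grn was at -0.65 ± 0.88 (adjusted p = 1). For the pump the median was -0.01.

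The opposite sides were last compared with the sham site. In LPC_Contra against Sham_Ipsil 0 of the 45 genes were called by edgeR, where 0.00595% of all genes were, and at an unadjusted p under 0.05 Tfeb was higher (log2 fold change 0.38 ± 0.15, adjusted p = 0.5) and Atp6v1a lower (log2 fold change -0.37 ± 0.14, adjusted p = 0.496), where 4.24% and 5.43% of all genes were. Libraries did not overlap for 7 genes that were higher in LPC_Contra and 2 that were lower, where this held for 7.06% and 8.07% of all genes. Tfeb had 13.6, 19.6 and 14.4 CPM in LPC_Contra, against 12.8, 11.3 and 12.4 CPM in Sham_Ipsil. LPC_Contra replicate 2, the library apart on the second component, was the highest of its group in Grn, Laptm5 and Gusb and had the highest pump sum of the group, 3381 CPM. In LNIO_Contra against Sham_Ipsil 0 of the 45 genes were called by edgeR (0% of all genes). At an unadjusted p under 0.05 there were 0, where 1.05% of all genes had a positive and 1.67% a negative fold change. DESeq2 called 0 of the 45, where it called 0.0119% of all genes. Libraries did not overlap for 3 genes that were higher in LNIO_Contra and 0 that were lower, where this held for 5.01% and 5.13% of all genes. Hydrolase medians were 0.03 in LPC_Contra and -0.01 in LNIO_Contra over sham, and pump medians 0.02 and 0.10.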

How the data were processed

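The authors aligned reads with HISAT2 2.2.1 against GRCm39 and used R 4.4.2, per the submitters' processing notes, and the annotation, strand setting and counting tool are not stated there. The authors deposited whole-number read counts per gene symbol and, in a second table, FPKM values, and both were used as deposited. RNA was extracted with TRIzol, depleted of ribosomal RNA, poly(A)-purified and sequenced from both ends on an Illumina NovaSeq, per the labels' protocols. All columns matched a library, and 74 symbols occur in more than 1 row, none of them a gene of the list.

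Counts were analysed in R 4.3.3 with edgeR 4.0.16: filterByExpr (minimum count 10, minimum total 15) kept 16795 genes, libraries were scaled by TMM, and 1 quasi-likelihood model over all 15 libraries gave every comparison, with Benjamini-Hochberg adjustment over all genes. The model left 10 residual degrees of freedom, and the common dispersion was 0.0453. Totals of 14896445 to 20916606 counts per library set the counting error. The procedure was also run on counts simulated from the fitted dispersions with known fold changes. No library was made to stand apart there, so that run does not cover a case like LPC_Ipsil replicate 3. Alternatives were DESeq2 1.42.0, its size factors, no filter, the compared groups alone, the replicate number as a block and each library left out.

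The genes described and the lists beside them were chosen with earlier results of these data known. All genes of the list are described, those with the smallest adjusted p-values in each class and a fixed set of well-known members by library. Outside it, up to 4 genes of each further list were named, by smallest p in the comparison described, along with the paralogue pairs of the pump, and 2 genes of these and the marker lists are not reported here by name. Csf1r and Csf3r were singled out from their marker lists after their values were seen. Replicate pairs of 1 group differed by more than counting noise (chi-square per degree of freedom 10.1 to 63.7). Deviations from group means of LNIO_Ipsil and LNIO_Contra libraries of the same number correlated at 0.599, 0.356 and 0.249, so the numbers were taken to pair these sides. This pairing entered the block fit alone, and the main p-values come from the model without a block. Deviations of libraries within a group depend on one another, so these correlations cannot settle the pairing. Promoter sequences are from RefSeq on GRCm38.p6, another build than that of the counts, and were matched by symbol.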

Additional observations from a re-analysis of the deposited data

Results flagged for a closer look

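Tfeb was noted because its difference between the injured and the opposite side ran in opposite directions after the 2 injuries. The log2 fold change was 0.163 in LPC_Ipsil over LPC_Contra and -0.185 in LNIO_Ipsil over LNIO_Contra, and the interaction was -0.35 ± 0.22 (SE; adjusted p = 1 in edgeR's quasi-likelihood fit), so the difference did not pass the test.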

How the results depend on the processing

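For LPC_Ipsil against Sham_Ipsil, where 10 of the 45 genes and 871 of all genes were called, the counts were 2 and 524 without the filter, 16 and 1512 by DESeq2, 0 and 0 with the compared groups alone, 10 and 842 with size factors, and 9 and 652 with the replicate block, which lost Arsb. Leaving out 1 library gave 0 to 19 genes of the list and 0 to 1660 of all genes, with 13 and 1207 without LPC_Contra replicate 2. All 10 genes kept a positive fold change in each of these fits.
For LNIO_Ipsil against Sham_Ipsil, with 0 called, all genes called were 1 without the filter, 237 by DESeq2, 363 (4 of the list) with the compared groups alone and 1 with the block. Leaving out 1 library gave 0 to 6 genes of the list and 0 to 395 in all. For LNIO_Ipsil against LPC_Ipsil, 1 gene was called without the filter and 15 by DESeq2, and leaving out 1 library gave 0 to 7 of the list and 0 to 266 in all. For LPC_Ipsil against LPC_Contra, DESeq2 called 11 of the list and 700 in all, the block 26 in all, and leaving out 1 library gave 0 to 16 and 0 to 948. For LNIO_Ipsil against LNIO_Contra, DESeq2 called 175 in all, the compared groups alone 6 of the list and 355 in all, the block 6 in all, and leaving out 1 library gave 0 to 7 and 0 to 371. For LPC_Contra against Sham_Ipsil, with 1 gene called, DESeq2 called 25, the compared groups alone 0, the block 0, and leaving out 1 library 0 to 2. For LNIO_Contra against Sham_Ipsil, 1 gene was called without the filter, 2 by DESeq2, 3 with the compared groups alone, 1 with the block, and 0 to 1 with a library left out.
The median log2 fold change of pump subunits in LNIO_Ipsil over LPC_Ipsil was 0.082 with size factors, 0.092 without the filter, 0.082 by DESeq2 and 0.083 with the compared groups alone, and over Sham_Ipsil it was -0.086 with the compared groups alone. With 1 library left out it ran from 0.061 to 0.112 over LPC_Ipsil, from -0.140 to -0.071 over Sham_Ipsil, from -0.187 to -0.119 over LNIO_Contra, and for LPC_Ipsil over LPC_Contra from -0.230 to -0.041. The medians of LNIO_Ipsil over LPC_Ipsil ran from -0.443 to -0.089 for hydrolases and from -0.371 to -0.062 for membrane proteins, and that of membrane proteins over Sham_Ipsil from 0.234 to 0.369.
Signs turned only among genes that were not called. With 1 library left out, the log2 fold change of LPC_Ipsil over Sham_Ipsil ran from -0.143 to 0.213 in Atp6v1g1, -0.112 to 0.154 in Smpd1, -0.066 to 0.037 in Atp6v0d1, -0.117 to 0.114 in Atp6v1f, -0.090 to 0.066 in Neu1, -0.125 to 0.001 in Atp6v0a1, -0.145 to 0.003 in Atp6v0c and -0.392 to 0.022 in Atp6ap1l. Glb1 ran from -0.950 to 0.138 in LNIO_Ipsil over LPC_Ipsil, and the interaction of Grn from -1.179 to 0.207, both positive only without LPC_Ipsil replicate 1.
The block changed no other call of the list. For the LPC sides pairing by number was left undecided. Same-numbered libraries correlated at -0.0357, 0.165 and 0.334, against at most 0.0259, 0.24 and -0.209 for other numbers. Number 3 alone was thus closest to its own number. The causes of these changes were not tested. The values of Atp6v0d2 rest on few counts.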
